A study of Mus musculus with 13 samples.

Results

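A list of 30 genes of cholesterol synthesis and handling was followed in Pdgfra-enriched cells of the mouse brain across 4 ages. The genes were given as symbols and matched to their Ensembl identifiers, which found all 30 members among the 37785 genes counted. By role, 4 members were regulators of the pathway, 8 were enzymes that lead from acetyl-CoA to the isoprenoids, 12 were enzymes that lead from there to cholesterol, and 6 were genes of cholesterol transport and of its nuclear receptors. All 30 passed the low-count filter and were tested with all other genes that passed it, 21170 in all.

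Cholesterol is made from acetyl-CoA by way of mevalonate and the isoprenoids, which are then joined to squalene and closed to the first sterol, lanosterol. The genes of these enzymes are controlled by SREBP2, the product of Srebf2, which Scap escorts out of the endoplasmic reticulum when sterols are scarce and which the Insig proteins hold back when they are plentiful. Since plasma lipoproteins hardly cross the blood-brain barrier, the brain makes its own cholesterol. Oligodendrocytes need large amounts of it for myelin, and astrocytes pass it to other cells on ApoE particles loaded by ABC transporters, whose genes are targets of the sterol-sensing liver X receptors (LXRs).

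Cells were enriched from brains of wild-type C57BL/6 mice with microbeads against PDGFRα, the surface receptor of oligodendrocyte precursor cells (OPCs), and their total RNA was sequenced in bulk. The 13 libraries came from embryonic day 16 (E16, 3 libraries) and from postnatal days 12 (P12, 3 libraries), 80 (P80, 3 libraries) and 310 (P310, 4 libraries). The age field departs from the title by 1 day for P80 replicates 2 and 3 (81 days) and by 2 to 4 days for the P310 samples. Beads that deplete myelin were part of the preparation in the adult groups alone, so that this step and adult age cannot be told apart. The series' design text speaks of 3 to 4 mice, and the titles number the samples of each age from ms1 upwards. What that number stands for is not given, and P12 replicates 2 and 3, which were summed, carry separate numbers. The p-values therefore measure only the spread between these samples.

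Libraries held 8669521 to 25810455 counts, and the mitochondrial share of the counts was 1.52% to 3.54% at E16, 4.44% to 10.8% at P12, 12.8% to 23.5% at P80 and 18.3% to 34.4% at P310. The counts of P12 replicates 2 and 3 came close to sampling noise (chi-square per degree of freedom 2.36, against 17.9 to 185 for 14 other pairs of one age) and were summed and counted as 1 sample, P12 replicate 2-3, which left 12 samples and n = 2 at P12. The summed level of 10 OPC markers was 93.3 to 122, 272 to 304, 137 to 202 and 104 to 280.0 CPM (counts relative to a common library total, scaled by TMM, which evens out differences in RNA composition) at the 4 ages, and no OPC marker was without counts at any age. Markers of other cells were present as well: 10 immature neuron markers summed to 6236 to 7349.9 CPM at E16, and 10 endothelial markers to 3994 to 5224, 4862 to 5862 and 3835 to 7235 CPM at P12, P80 and P310. The OPC sum was below the immature neuron sum in every E16 sample and below the endothelial sum in every later sample. The libraries are described below as Pdgfra-enriched samples after their preparation, and not after these sums. Fewer cells of a type and less RNA per cell cannot be told apart in these samples. P12 replicate 1 and P310 replicate 2 stood apart in the summed level of 10 oligodendrocyte markers, the first with 7827 CPM against 385 in P12 replicate 2-3, the other with 67262 CPM against 422 to 864 in the other P310 samples.

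The summed level of the enzymes of cholesterol synthesis was highest in the embryonic samples and low in both adult groups. The summed level of the genes of cholesterol transport and its receptors was lowest in the embryonic samples. Summed over the 20 enzymes, the level was 881, 844 and 1062 CPM in the E16 samples, 752 and 403 in the P12 samples, 353, 354 and 361 in the P80 samples and 321, 303, 335 and 348 in the P310 samples. Each E16 sample was above every later sample, and the P12 samples lay far apart from each other. The 6 genes of transport and its receptors summed to 339, 345 and 402 CPM at E16 and to 2482 and 2099 at P12, then to 1349.8 to 1733 at P80 and 979 to 2083 at P310. Most of this sum was Apoe, which alone averaged 195 CPM at E16, 1668 at P12, 1316 at P80 and 1139 at P310. At P80, 18 of the 20 enzymes had a mean under that of E16, with a median of 45.2% of the E16 mean and a range of 12.2% to 191%.

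Between E16 and P80, edgeR's quasi-likelihood test with Benjamini-Hochberg adjustment over 21170 genes called 13 of the 30 members lower and 5 higher, where it called 19.2% of all genes lower and 21.5% higher. The median log2 change of the members was -0.82, and that of all genes 0.116. Among the 20 enzymes 11 fell and 1 rose, with a median of -1.16, while 4 of the 6 transport and receptor genes rose and none fell. Between E16 and P12, 4 members fell and 5 rose, with 10.5% of all genes called lower and 16.7% higher. From P12 to P80, 2 members fell and none rose, where 1.02% of all genes were called lower and 0.406% higher. From P80 to P310 no member was called and 0% of all genes were called by edgeR, with 1162 genes and 1 member at an unadjusted p under 0.05; edgeR without the filter on low counts called 423 genes, DESeq2 28 and limma-voom 0. The median log2 change of the members in that comparison was 0.01. Over all ages together 19 members were called, against 37.1% of all genes.

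**Figure D1:**
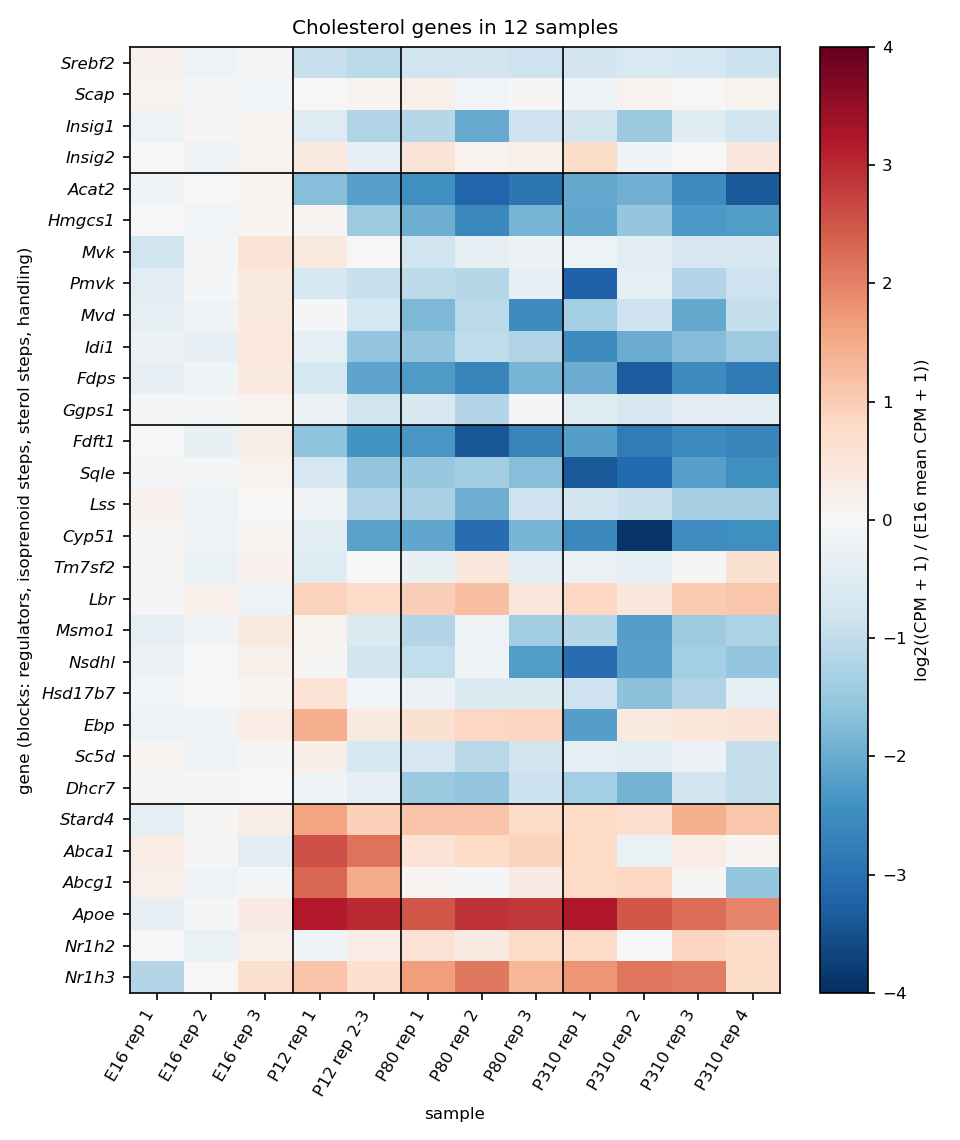
Level of each of the 30 cholesterol genes (rows, in blocks of regulators, isoprenoid steps, sterol steps and handling) in each of 12 samples (columns), as the log2 ratio of CPM + 1 to the E16 mean + 1; red is above and blue below the E16 mean. Most enzymes are blue in P12 replicate 2-3 and in the adult samples. P12 replicate 1 is paler, with some enzymes, among them Hmgcs1 and Sc5d, above the E16 mean. Apoe and Abca1 are red at P12.

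The same comparison from E16 to P80 held large shifts of cell type markers, where 19.2% of all genes were called lower and 21.5% higher. All 10 immature neuron markers fell, and all 10 endothelial markers rose, as did 9 of 10 microglia markers, 8 of 10 astrocyte markers, 8 of 10 mural markers and all 8 ependymal and choroid plexus markers. Of the other lists, 5 of 8 radial glia, 3 of 10 mature neuron and 1 of 5 fibroblast markers fell, and 2 of 10 oligodendrocyte markers and 1 of 10 OPC markers rose. The immature neuron sum was 6236 to 7349.9 CPM at E16, 246 to 269.6 at P12 and 101 to 111 at P80. Over the same ages the astrocyte sum was 458 to 528, 2919 to 3401 and 1363 to 2049 CPM, and the microglia sum 82.1 to 119, 917 to 982 and 351 to 1196. The ependymal and choroid plexus sum was 95.6 to 166 CPM at E16 and 957 to 5297 at P80, and the radial glia sum 1501 to 1556 and 912 to 1111. Of the 6 lists in which most markers rose or all fell, 1 marker, the ependymal Tmem212, had no count at E16. Their part in the changes of the cholesterol genes was not tested. With mitochondrial, ribosomal protein and haemoglobin genes left out of the counts, 13 members fell and 5 rose between E16 and P80.

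Promoters of 4 members that fell together and of 1 that rose are shown as the sequence context of these changes. RefSeq promoter windows on GRCm38.p6, from 250 bases before to 50 after the start of transcription, were matched for 25 of the 30 members. The printed windows are those of Hmgcs1 (chr13:119690101-119690400, plus strand), Srebf2 (chr15:82147019-82147318, plus strand), Insig1 (chr5:28071162-28071461, plus strand) and Cyp51 (chr5:4104648-4104947, minus strand), which fell between E16 and P80, and of Abca1 (chr4:53159846-53160145, minus strand), which rose. Capitals mark the sterol regulatory element core TCACNCCAC and the CCAAT box, each searched on both strands, so that ATTGG is a CCAAT box of the other strand.
Hmgcs1: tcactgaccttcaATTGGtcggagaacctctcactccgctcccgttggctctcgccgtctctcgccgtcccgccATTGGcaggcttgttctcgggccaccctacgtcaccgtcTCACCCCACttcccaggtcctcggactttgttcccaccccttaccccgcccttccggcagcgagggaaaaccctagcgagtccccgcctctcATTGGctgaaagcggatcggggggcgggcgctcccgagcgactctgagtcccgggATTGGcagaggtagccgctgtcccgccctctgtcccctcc
Srebf2: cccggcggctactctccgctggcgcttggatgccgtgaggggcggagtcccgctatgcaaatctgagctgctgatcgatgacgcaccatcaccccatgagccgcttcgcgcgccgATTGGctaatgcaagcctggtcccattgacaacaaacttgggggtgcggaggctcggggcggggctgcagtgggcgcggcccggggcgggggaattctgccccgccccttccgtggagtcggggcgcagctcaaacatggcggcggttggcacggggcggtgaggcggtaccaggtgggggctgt
Insig1: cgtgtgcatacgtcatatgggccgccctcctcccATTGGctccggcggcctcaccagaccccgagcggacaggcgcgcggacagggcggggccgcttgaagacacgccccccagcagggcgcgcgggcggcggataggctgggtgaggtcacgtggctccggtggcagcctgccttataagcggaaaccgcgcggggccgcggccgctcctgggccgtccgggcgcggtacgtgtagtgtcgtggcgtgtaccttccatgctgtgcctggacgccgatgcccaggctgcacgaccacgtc
Cyp51: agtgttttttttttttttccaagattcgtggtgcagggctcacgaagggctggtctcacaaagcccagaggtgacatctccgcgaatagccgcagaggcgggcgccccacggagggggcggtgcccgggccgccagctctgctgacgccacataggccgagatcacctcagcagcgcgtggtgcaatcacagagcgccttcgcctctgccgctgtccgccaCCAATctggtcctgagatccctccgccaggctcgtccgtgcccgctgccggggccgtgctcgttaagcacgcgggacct
Abca1: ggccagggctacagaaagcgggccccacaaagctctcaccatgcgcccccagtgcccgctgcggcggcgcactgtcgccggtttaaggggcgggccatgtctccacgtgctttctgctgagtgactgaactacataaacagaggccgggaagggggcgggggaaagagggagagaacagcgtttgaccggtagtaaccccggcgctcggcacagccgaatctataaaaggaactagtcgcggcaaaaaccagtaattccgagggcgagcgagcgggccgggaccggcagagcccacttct

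The window of Hmgcs1 held the sterol regulatory element core at -137 from the start and 4 CCAAT boxes. It was the 1 member of 25 with a match to that core, which 1.24% of 32851 promoters held. Srebf2, Insig1 and Cyp51 each held 1 CCAAT box and no match to the core, and Abca1 held neither. Among the windows not printed, that of Acat2, which fell, held neither, and that of Lbr, which rose, held 2 CCAAT boxes. Those of Apoe and Nr1h3, which rose, held neither. The box was thus not limited to members that fell, nor present in all of them. A CCAAT box stood in the windows of 19 of the 25 members (76%), against 37.4% of all promoters, and in 19 of the 34 windows of these members when each start was counted. The GC box GGGCGG, on either strand, was found in 20 of the 25 members (80%), against 35.7% of all promoters, and in 23 of the 34 windows. These are exact matches of letters in a fixed window. A window without a match says nothing of sites outside it, or of sites inside it that depart from these letters.

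Among the regulators, Srebf2 and Insig1 were lower in the adult samples than at E16, while Scap and Insig2 were not called in any comparison. Srebf2 (ENSMUSG00000022463, GRCm38 chromosome 15, 82147181 to 82205379, plus strand) encodes SREBP2, the activator of the synthesis genes, and stood at 241, 194 and 205 CPM at E16, 111 and 101 at P12, 123, 126 and 119 at P80 and 125, 141, 131 and 116 at P310. Every E16 sample was above every later sample. Its mean fell from 213 ± 24.6 CPM (SD, n = 3) to 106 ± 7.18 (n = 2), a log2 change of -1.01 ± 0.195 (standard error, SE) with an adjusted p of 0.00127. The log2 change from E16 to P80 was -0.80 ± 0.170 (adjusted p = 0.00165), so that the level at P80 was 1.74-fold lower than at E16. After P12 Srebf2 stayed between 116 and 141 CPM in all 7 adult samples, with no step called.

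Insig1, which retains the SREBP and Scap complex when sterols are plentiful and is itself a target of SREBP2, had 30.6, 36.4 and 38.9 CPM at E16, 24.2 and 14.7 at P12, 15.4, 8.03 and 19.6 at P80 and 20.98, 11.9, 25.1 and 20.1 at P310. The highest adult sample was below the lowest E16 sample. Its log2 change from E16 to P80 was -1.29 ± 0.368 (adjusted p = 0.0115) and that from E16 to P12 was -0.86 ± 0.414, which did not pass the test (adjusted p = 0.141). Scap, the escort protein, ranged from 43.6 to 56.5 CPM over the 12 samples, with a log2 change of 0.05 ± 0.198 from E16 to P80. Insig2, the second retention protein, ranged from 7.95 to 17.8 CPM, with 0.32 ± 0.362 for the same comparison. The intervals of 1 SE spanned 0 for both.

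Of the 8 enzymes of the isoprenoid steps, 5 fell between E16 and P80, none rose, and all 8 log2 changes were negative with a median of -1.62. Over all genes, 19.2% were called lower in this comparison and 21.5% higher. Acat2, the cytosolic thiolase that joins 2 molecules of acetyl-CoA, had 37.3, 41.6 and 44.6 CPM at E16, 11.8 and 8.33 at P12, 6.65, 3.71 and 4.73 at P80 and 9.24, 10.2, 6.33 and 3.14 at P310. Each E16 sample was above every later sample. The log2 change was -2.03 ± 0.478 (adjusted p = 0.00523) from E16 to P12 and -3.02 ± 0.432 (adjusted p = 5.94e-05) from E16 to P80, an 8.13-fold lower level and the largest fall of the 30 members in this comparison. Without P12 replicate 2-3 the step to P12 was -1.80 (adjusted p = 0.0726).

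Hmgcs1 (ENSMUSG00000093930, GRCm38 chromosome 13, 119690379 to 119708260, plus strand), HMG-CoA synthase, had 175, 159.8 and 179 CPM at E16, 183 and 62.6 at P12, 43.6, 27.8 and 46.9 at P80 and 39.5, 58.6, 34.1 and 35.7 at P310. P12 replicate 1 was just above the E16 samples, whereas P12 replicate 2-3 was far below them. The fall from E16 to P80 was -2.12 ± 0.350 (adjusted p = 2.19e-04), which is 4.34-fold, and Hmgcs1 passed in all 24 alternatives tried. From P12 to P80 it was -1.64 ± 0.371 (adjusted p = 0.0417), a call that was lost in 15 of 24 alternatives and was -0.67 (adjusted p = 1) without P12 replicate 1. Leaving out any E16 or any P80 sample, or P310 replicate 1, 3 or 4, also ended that call, with adjusted p-values from 0.0525 to 0.168. Of its exonic bases 12.1% are shared with Gm48342, and the counting used no strand.

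Of the enzymes that turn mevalonate into farnesyl diphosphate, Mvd, Idi1 and Fdps fell between E16 and P80. Mvd, mevalonate diphosphate decarboxylase, had 10.6, 12.5 and 18.2 CPM at E16, 13.4 and 7.99 at P12, 3.29, 5.93 and 1.60 at P80 and 4.75, 7.37, 2.59 and 6.54 at P310, with no overlap between E16 and the adult samples and a log2 change of -1.95 ± 0.544 (adjusted p = 0.0103) from E16 to P80. Idi1, the isomerase of isopentenyl diphosphate, had 39.4, 36.98 and 62.6 CPM at E16, 35.3 and 15.3 at P12, 15.01, 22.4 and 19.8 at P80 and 7.26, 11, 13.2 and 16.4 at P310. Its log2 change from E16 to P80 was -1.28 ± 0.377 (adjusted p = 0.0137), a call that was lost without E16 replicate 3 (-1.01, adjusted p = 0.0765) and without P80 replicate 1 (-1.14, adjusted p = 0.0564). All later samples of Idi1 were below the E16 samples, among which E16 replicate 3 was the highest for both genes.

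Fdps, farnesyl diphosphate synthase, had 58.3, 65.5 and 97.5 CPM at E16, 44.5 and 16.3 at P12, 14.7, 10.99 and 19.6 at P80 and 18.1, 6.49, 11.9 and 9.60 at P310. No later sample reached the E16 range. The fall from E16 to P80 was -2.28 ± 0.429 (adjusted p = 6.37e-04), a 4.87-fold lower level. The step from E16 to P12 did not pass at -1.28 ± 0.475 (adjusted p = 0.0589), and P12 replicate 1 held 2.73 times the level of P12 replicate 2-3. Gm43738 shares 26.7% of the exonic bases of Fdps. The mevalonate kinase Mvk (7.92 to 22.0 CPM over the 12 samples), the phosphomevalonate kinase Pmvk (1.32 to 27.5 CPM) and the geranylgeranyl diphosphate synthase Ggps1 (13.3 to 34.5 CPM) were not called in any comparison. Their log2 changes from E16 to P80 were -0.48 ± 0.388 for Mvk, -0.84 ± 0.581 for Pmvk and -0.57 ± 0.305 for Ggps1.

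**Figure D2:**
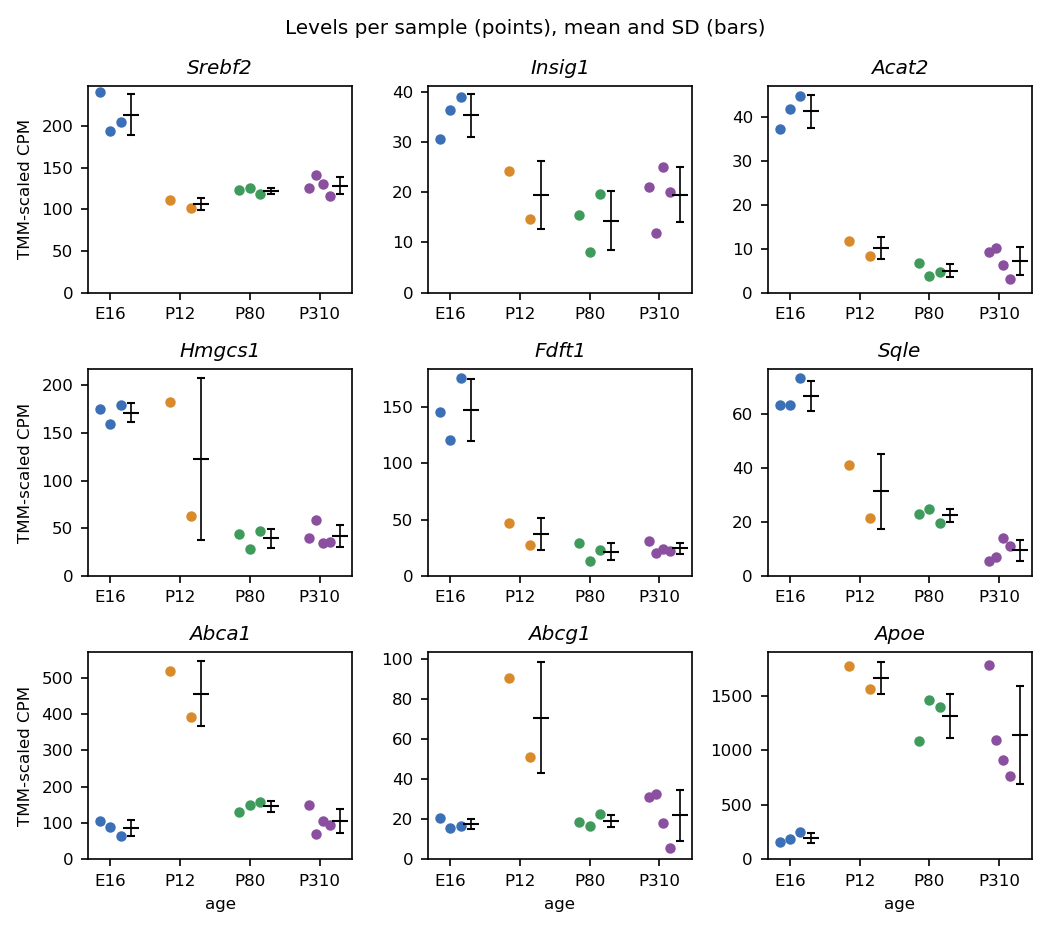
TMM-scaled CPM (vertical axes, each starting at 0) of 9 cholesterol genes at the 4 ages (horizontal axes). Points are samples, and bars are the mean and SD of each age (n = 3, 2, 3 and 4). Acat2, Fdft1, Srebf2, Insig1 and Sqle have every E16 sample above every later one. Hmgcs1 has P12 replicate 1 at 183 CPM, just above the E16 samples, and Abca1 and Abcg1 have both P12 samples above all others.

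Of the 12 enzymes of the sterol steps, 6 fell between E16 and P80 and Lbr rose, with a median log2 change of -0.96. The shares of all genes called in this comparison were 19.2% lower and 21.5% higher. Fdft1 (ENSMUSG00000021273, GRCm38 chromosome 14, 63145150 to 63179578, minus strand), squalene synthase, is the first enzyme committed to sterols, and had 145, 121 and 175 CPM at E16, 47.3 and 27.2 at P12, 28.8, 13.1 and 22.9 at P80 and 31.3, 20.2, 24.2 and 22.5 at P310. No E16 sample overlapped with any later one. The log2 change was -1.98 ± 0.360 (adjusted p = 7.49e-04) from E16 to P12 and -2.76 ± 0.320 (adjusted p = 8.08e-06) from E16 to P80, which is 6.78-fold lower. Both were called in 24 of 24 alternatives, and it had the smallest adjusted p over all ages among the 30 members (4.16e-06). Ctsb shares 18.3% of the exonic bases of Fdft1.

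Sqle, squalene epoxidase, is a rate-limiting enzyme of the pathway and had 63.2, 63.4 and 73.1 CPM at E16, 41.1 and 21.5 at P12, 22.7, 24.6 and 19.8 at P80 and 5.54, 6.82, 14 and 11.2 at P310. The levels of the 4 ages did not overlap except that the lower P12 sample lay among the P80 samples. The log2 change was -1.57 ± 0.345 (adjusted p = 0.00209) from E16 to P80, called in all 24 alternatives. The step from E16 to P12 passed narrowly at -1.09 ± 0.389 (adjusted p = 0.0497) and was lost in 9 of 24 alternatives, among them each of the E16 samples left out (adjusted p from 0.0869 to 0.125), each of the P80 samples left out (0.0551 to 0.0631), P310 replicate 4 left out (0.0538) and P12 replicate 2-3 left out (-0.70, adjusted p = 0.376). From P80 to P310 the 4 older samples were all below the 3 younger ones, with a log2 change of -1.24 ± 0.319 that did not pass the adjustment over all genes (adjusted p = 0.871). It was the 1 member at an unadjusted p under 0.05 in that comparison.

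Lss, lanosterol synthase, closes the sterol rings and had 51.7, 38.9 and 45.6 CPM at E16, 41.1 and 19.3 at P12, 18.1, 10.9 and 25.2 at P80 and 26, 23.8, 17.4 and 17.6 at P310. P12 replicate 1 lay within the E16 range, and the adult samples were all below it. The log2 change from E16 to P80 was -1.32 ± 0.353 (adjusted p = 0.00772). Cyp51, the lanosterol demethylase, had 78.7, 69.3 and 81.4 CPM at E16, 56.7 and 16.5 at P12, 17.4, 8.40 and 20.4 at P80 and 11.9, 4.07, 12.9 and 13 at P310. Every E16 sample was above every later one, and P310 replicate 2 was the lowest. The fall from E16 to P80 was -2.31 ± 0.496 (adjusted p = 0.00205), or 4.95-fold. Its step from E16 to P12 was -1.07 ± 0.544 and did not pass (adjusted p = 0.169), with P12 replicate 1 at 3.43 times the level of P12 replicate 2-3.

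The next intermediate can be reduced by either of 2 enzymes, Lbr and Tm7sf2, and neither was called lower at any age. Lbr, the lamin B receptor, which is a sterol reductase and also anchors chromatin at the nuclear envelope, had 27.3, 32.9 and 24.2 CPM at E16, 54.4 and 48.9 at P12, 56.3, 65.96 and 38.8 at P80 and 50.5, 38.9, 58.6 and 62.2 at P310. All later samples were above the E16 samples. Its log2 change was 0.88 ± 0.278 (adjusted p = 0.0298) from E16 to P12 and 0.93 ± 0.255 (adjusted p = 0.00913) from E16 to P80. The first was lost without E16 replicate 1 (adjusted p = 0.0796), E16 replicate 3 (0.102), P12 replicate 1 (0.146) or P12 replicate 2-3 (0.0861). Dnah14 and Gm26004 share 10.7% of the exonic bases of Lbr. Tm7sf2, the second reductase, ranged from 21.1 to 47.9 CPM and had a log2 change of -0.05 ± 0.327 from E16 to P80, which was not called; 47.2% of its exonic bases are shared with Gm28374 and Vps51.

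The removal of methyl groups from the sterol ring is carried out by Msmo1, Nsdhl and Hsd17b7. Msmo1, the methylsterol oxidase, had 34.3, 40.3 and 58.6 CPM at E16, 49.5 and 29.6 at P12, 19.1, 38.3 and 16.1 at P80 and 19.5, 8.91, 15.9 and 17.8 at P310. Its P310 samples were all below its E16 samples, while P80 replicate 2 lay within the E16 range. Nsdhl, the dehydrogenase of the same steps, had 11.4, 14.1 and 15.9 CPM at E16, 14.2 and 7.85 at P12, 6.52, 11.7 and 2.16 at P80 and 0.792, 2.31, 4.72 and 4.08 at P310, with the same overlap of P80 replicate 2 and none at P310. Both differed over all ages (adjusted p = 0.0137 for Msmo1 and 0.0406 for Nsdhl) while none of the 4 comparisons called them. The P310 means were 34.9% of the E16 mean for Msmo1 and 21.6% for Nsdhl. Hsd17b7, the ketoreductase, ranged from 1.54 to 10.8 CPM and was not called in any comparison.

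Among the last enzymes, Sc5d and Dhcr7 fell and Ebp did not pass the test. Sc5d, the sterol desaturase, had 31.5, 27.4 and 31.1 CPM at E16, 35.1 and 18 at P12, 18.4, 13.5 and 16.8 at P80 and 22.8, 21.4, 25.4 and 15.1 at P310. P12 replicate 1 was above the E16 samples and all adult samples were below them, with a log2 change of -0.89 ± 0.307 (adjusted p = 0.0318) from E16 to P80. That call was lost in 8 of 24 alternatives, including the omission of any E16 sample (0.0528 to 0.0825 as adjusted p), of P80 replicate 2 (0.095) and of P80 replicate 3 (0.0846). Dhcr7, the reductase of the final step, had 22.2, 20.8 and 21.2 CPM at E16, 19.1 and 16.4 at P12, 6.97, 6.55 and 11.3 at P80 and 7.65, 5.06, 12.1 and 10.5 at P310, with the P12 samples just under the E16 range and all adult samples lower. It fell by 1.37 on the log2 scale from E16 to P80 (adjusted p = 0.0089), which is 2.58-fold. Ebp, the sterol isomerase, ranged from 0.264 CPM in P310 replicate 1, which rests on 2 counts, to 14.9 CPM in P12 replicate 1, and its log2 change from E16 to P80 was 0.88 ± 0.711.

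**Figure D3:**
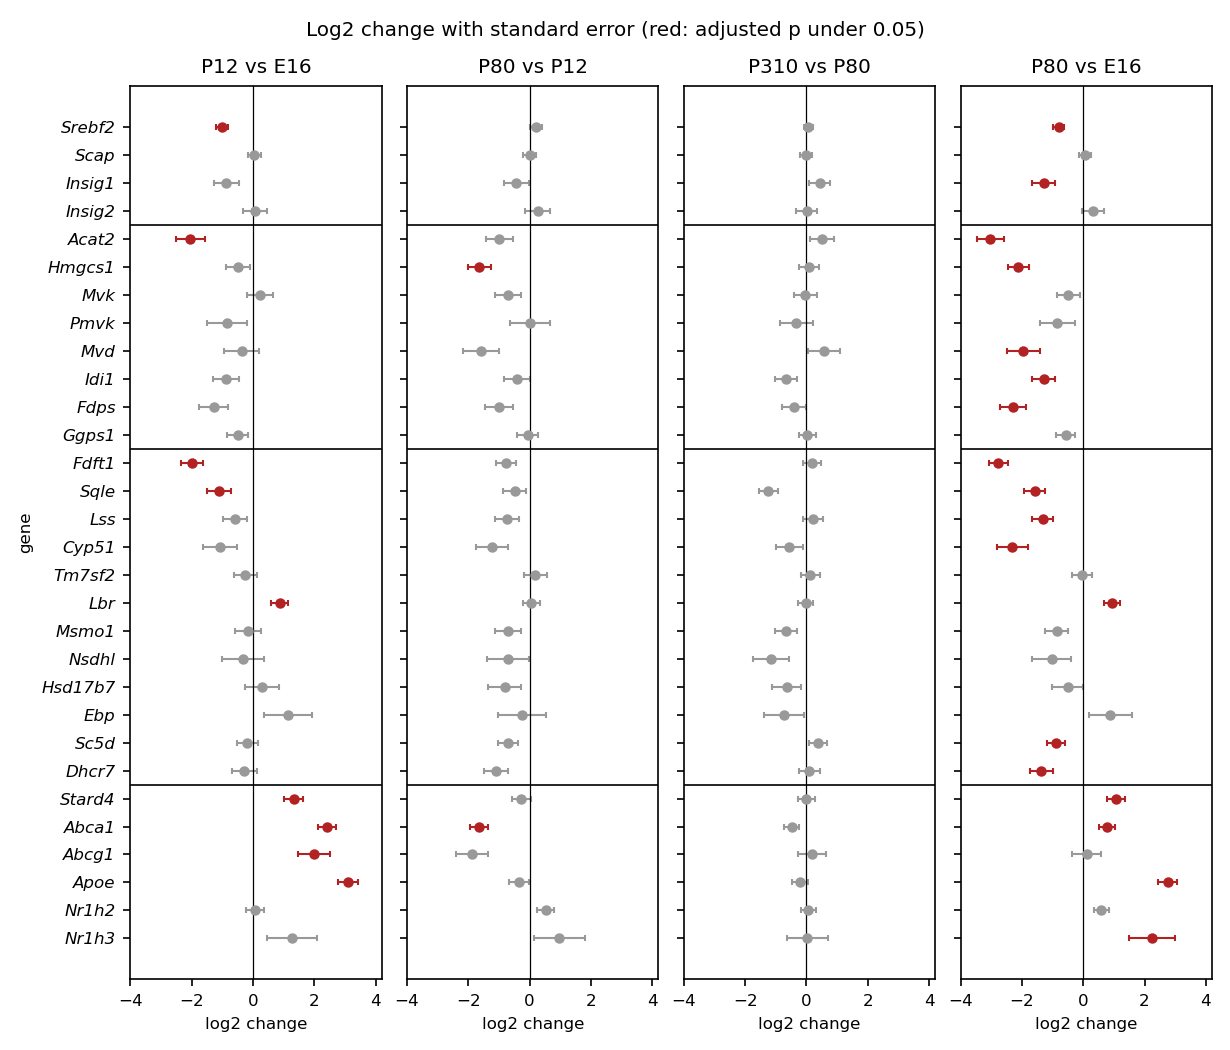
Log2 change (horizontal axes) of the 30 cholesterol genes (vertical axis) in the 4 comparisons of ages, with the standard error as a bar; red marks an adjusted p under 0.05 by edgeR's quasi-likelihood test. From E16 to P80 there are 13 red points left of 0 and 5 right of it, and from P80 to P310 there is none.

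Of the 6 genes of transport and its receptors, Apoe, Abca1, Abcg1 and Stard4 rose between E16 and P12, and Apoe, Abca1, Stard4 and Nr1h3 between E16 and P80. Called higher were 16.7% of all genes in the first comparison and 21.5% in the second. Apoe (ENSMUSG00000002985, GRCm38 chromosome 7, 19696109 to 19699188, minus strand), the main lipid carrier secreted by astrocytes and microglia, had 154, 185 and 245 CPM at E16, 1773 and 1562 at P12, 1088, 1459 and 1399.8 at P80 and 1785, 1098, 913 and 762 at P310. The lowest later sample, at 762 CPM, was above the highest E16 sample, at 245 CPM. The log2 change from E16 to P12 was 3.10 ± 0.327 (adjusted p = 4.96e-06), an 8.57-fold rise, and that from E16 to P80 was 2.76 ± 0.307 (adjusted p = 5.49e-06). The steps from P12 to P80 (-0.34) and from P80 to P310 (-0.21) were not called, and the 4 P310 samples ranged over more than the P80 samples.

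Abca1 (ENSMUSG00000015243, GRCm38 chromosome 4, 53030787 to 53159895, minus strand), which loads cholesterol onto lipid-poor ApoE, had 105, 87.8 and 63.7 CPM at E16, 519 and 392 at P12, 129, 149 and 159 at P80 and 149.8, 70.5, 106 and 92.6 at P310. Both P12 samples were above every sample of the other ages. It rose by 2.41 ± 0.295 (adjusted p = 2.15e-05) from E16 to P12, which is 5.32-fold, and fell by 1.65 on the log2 scale from P12 to P80 (adjusted p = 0.00937). That fall was not called without P12 replicate 1 (-1.44, adjusted p = 0.147), P80 replicate 1 (adjusted p = 0.0517) or P80 replicate 3 (0.0502). The smaller rise from E16 to P80 of 0.76 ± 0.265 (adjusted p = 0.0323) was lost without E16 replicate 2 (adjusted p = 0.0709), E16 replicate 3 (0.134), P80 replicate 2 (0.0715) or P80 replicate 3 (0.0694).

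Abcg1, a second cholesterol exporter, had 20.7, 15.8 and 16.7 CPM at E16, 90.6 and 51.1 at P12, 18.6, 16.7 and 22.5 at P80 and 31.3, 32.4, 18.3 and 5.44 at P310. Here too both P12 samples were above all others. The rise from E16 to P12 was 1.999 ± 0.524 (adjusted p = 0.0109), and without P12 replicate 1 it was 1.53 (adjusted p = 0.112). From P12 to P80 the groups did not overlap and the log2 change was -1.88 ± 0.524, which did not pass (adjusted p = 0.129). Stard4, which shuttles sterol between membranes in the cytosol and is a target of SREBP2, had 13.5, 18.5 and 21.5 CPM at E16, 55.2 and 35.2 at P12, 40.4, 40.3 and 31.4 at P80 and 31.7, 29.1, 49.03 and 39.5 at P310. All later samples were above the E16 samples. It rose by 1.34 ± 0.311 (adjusted p = 0.00487) from E16 to P12 and by 1.06 ± 0.286 (adjusted p = 0.00821) from E16 to P80, whereas 11 of the 20 enzymes fell in the latter comparison. Without P12 replicate 1 the first change was 0.98 (adjusted p = 0.0895).

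Of the LXR genes, Nr1h3 rose and Nr1h2 did not pass the test. Nr1h3, LXRα, had 0.144, 1.57 and 3.07 CPM at E16, 4.67 and 3.16 at P12, 7.22, 10.3 and 5.56 at P80 and 7.79, 10.3, 9.81 and 3.31 at P310. All later samples were above the E16 samples, though P12 replicate 2-3 only just, and it rose from E16 to P80 by 2.25 ± 0.756 (adjusted p = 0.0279). E16 replicate 1 was at 0.144 CPM, which rests on 2 counts. The call was lost without E16 replicate 1 (1.72, adjusted p = 0.0562), E16 replicate 2 (adjusted p = 0.075) or P80 replicate 2 (0.0741). Nr1h2, LXRβ, ranged from 36.9 to 82.8 CPM, with a log2 change of 0.59 ± 0.255 from E16 to P80 that did not pass (adjusted p = 0.0767). The rise of Apoe, Abca1, Abcg1 and Stard4 at P12 went with the rise of 8 of 10 astrocyte, 9 of 10 microglia, 10 of 10 endothelial, 8 of 10 mural, 8 of 8 ependymal and choroid plexus, 6 of 10 oligodendrocyte, 3 of 5 fibroblast and 1 of 10 OPC markers. It also went with the fall of 10 of 10 immature neuron, 4 of 8 radial glia and 3 of 10 mature neuron markers. Of all genes, 16.7% were called higher and 10.5% lower from E16 to P12. The astrocyte sum was 2919 to 3401 CPM at P12 and 1363 to 2049 CPM at P80, with 1 of 10 markers called lower. Their part in the result was not tested.

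The P12 samples differed from each other in nearly all enzymes. In P12 replicate 1, 19 of the 20 enzymes were higher than in P12 replicate 2-3, with a median ratio of 1.71 and a range from 0.679 for Tm7sf2 to 3.43 for Cyp51. Over all 21170 genes tested, 49.5% were higher in P12 replicate 1 and the median ratio was 1.02. The oligodendrocyte marker sum was 7827 CPM in P12 replicate 1 and 385 CPM in P12 replicate 2-3. The ependymal and choroid plexus sum was 5547 and 884 CPM in these samples, the fibroblast sum 1002 and 1702 CPM, and the mature neuron sum 31.2 and 255 CPM. In P310 replicate 2, where the oligodendrocyte sum was 67262 CPM, the enzyme sum of 303 CPM was the lowest of the 4 P310 samples, and 9 of 20 enzymes had their lowest P310 value there, whereas 28.1% of all genes did. The sterol steps summed to 164 CPM there, against 206 to 234 in the other P310 samples. The isoprenoid steps went the other way, with 139 CPM against 108 to 115. The part of the cells behind these marker sums in the P12 or the P310 differences was not tested. Leaving out both samples leaves 1 sample at P12. The median log2 change from E16 to P12 was then -0.63 for the members and 0.19 for all genes. With all samples these medians were -0.26 and 0.0906. From E16 to P80 the medians were -0.77 and 0.19 without both samples, against -0.82 and 0.116 with all samples.

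**Figure D4:**
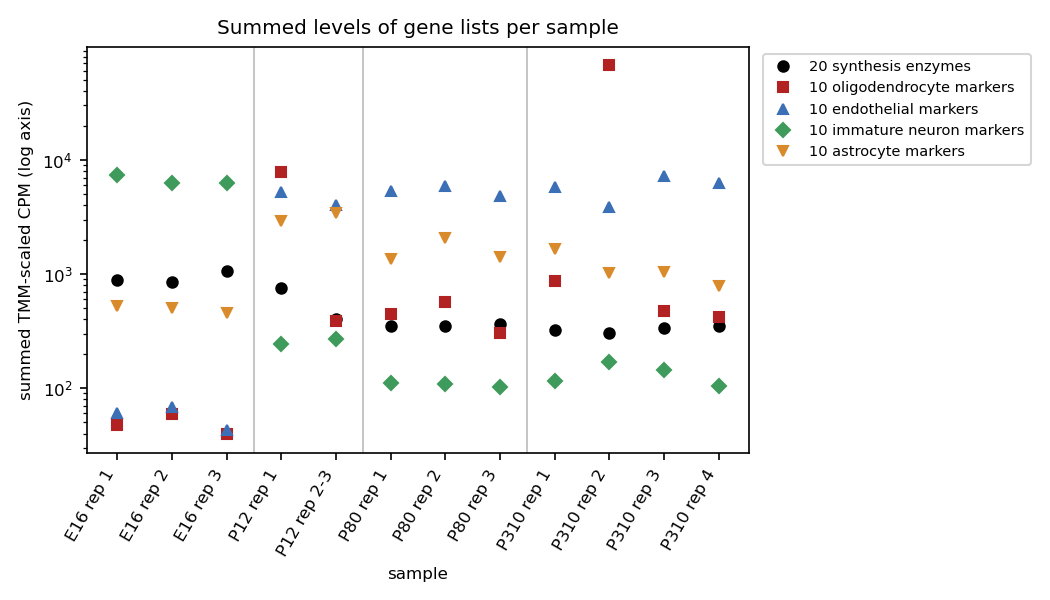
Summed TMM-scaled CPM (log axis) of the 20 cholesterol synthesis enzymes and of 4 lists of 10 cell type markers in each of the 12 samples (horizontal axis, grouped by age). The enzyme sum is 844 to 1062 CPM at E16 and 303 to 348 at P310, while the oligodendrocyte sum reaches 7827 CPM in P12 replicate 1 and 67262 CPM in P310 replicate 2.

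Levels of different members were compared as CPM per kilobase of the merged exon length in the files. Apoe ranked first at all 4 ages, with 91.02 ± 21.7, 780.1 ± 69.7, 615 ± 93.2 and 533 ± 211 CPM per kilobase. At E16 it was followed by Hmgcs1 (37.3 ± 2.24), Fdft1 (34.8 ± 6.46) and Srebf2 (29.7 ± 3.42), where the range of Fdft1 overlapped with those of Hmgcs1 and Srebf2. At P12 Abca1 was the second with 43.96 ± 8.68, and at P80 and P310 Nr1h2 was the second with 20.2 ± 2.91 and 21.1 ± 5.07 CPM per kilobase. The range of Hmgcs1 overlapped with that of Abca1 at P12, and the range of Srebf2 with that of Nr1h2 at P80 and P310. Fdft1 went from rank 3 at E16 to rank 12 at P80, Acat2 from 7 to 26, Cyp51 from 6 to 22 and Fdps from 5 to 21, while Lbr rose from 19 to 5 and Stard4 from 26 to 9. The merged exon length of Lss is 10787 bases, the longest of the 30.

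**Figure D5:**
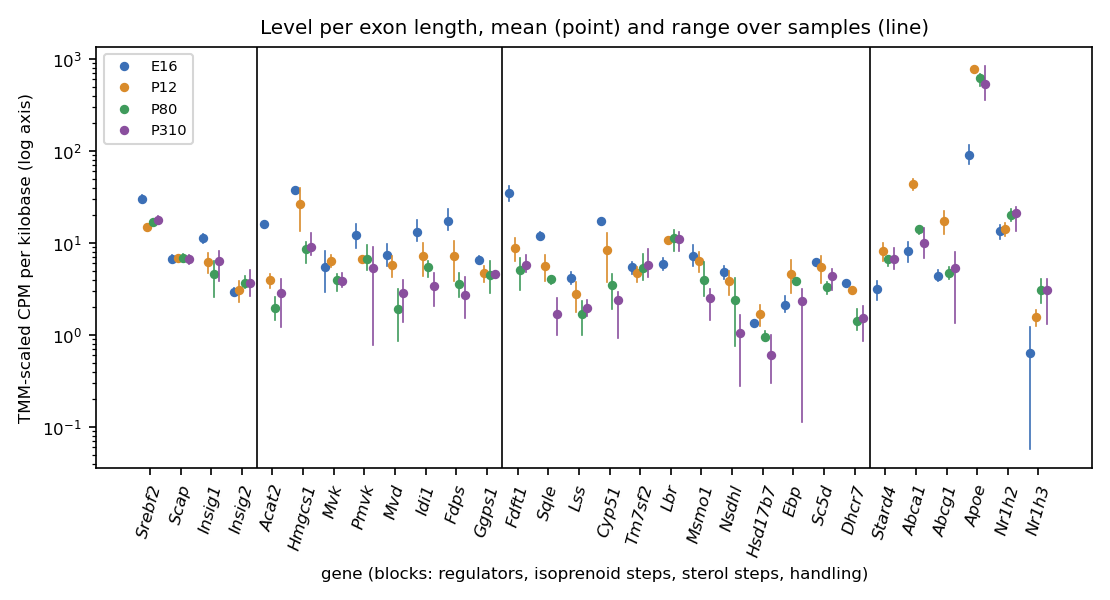
Level of the 30 cholesterol genes (horizontal axis, in blocks by role) as TMM-scaled CPM per kilobase of exon length (log axis), with the mean of each age as a point and the range over samples as a line. Apoe is the highest at every age, and Hsd17b7 and Nr1h3 are among the lowest at E16, with 1.36 ± 0.1003 and 0.633 ± 0.581 CPM per kilobase.

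Other genes of the pathway were described with 38 further genes in 4 lists. Of these, 9 rose and 3 fell from E16 to P12, and 12 rose and 6 fell from E16 to P80, with medians of 0.44 and 0.46. Of all genes, 16.7% were called higher and 10.5% lower in the first comparison, and 21.5% and 19.2% in the second. Among further genes of synthesis and its control, none rose from E16 to P80. Mbtps2, the protease of the second cut that frees SREBP, fell by 1.45 on the log2 scale over that span, and Acat1, the mitochondrial thiolase, by 1.30 (adjusted p = 0.00106 and 0.00141).

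Of 10 genes of uptake and the lysosome, 4 rose and 1 fell from E16 to P80. Scarb1, the receptor for high-density lipoprotein, rose by 2.44 ± 0.245 (adjusted p = 1.96e-06). Lipa, the lysosomal acid lipase that frees cholesterol from its esters, rose by 2.46 ± 0.372, and Mylip, which marks the LDL receptor for degradation, by 2.41 ± 0.370 (adjusted p = 1.01e-04 and 1.13e-04). All 3 had also risen by P12, by 2.83, 3.02 and 2.66. Lrp8, a receptor for ApoE, was the 1 gene of this list called from P12 to P80, where it fell from 398 ± 119 to 142 ± 24.9 CPM (-1.49 ± 0.275, adjusted p = 0.0118). That call was lost without P12 replicate 1 (adjusted p = 0.246), P80 replicate 1 (0.0639) or P80 replicate 3 (0.0797).

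Among 8 genes of cholesterol esters and oxysterols, 3 rose from E16 to P80 and none fell. Lcat, which esterifies cholesterol on lipoproteins, went from 0.429 ± 0.465 to 11.9 ± 6.29 CPM (4.75 ± 0.776, adjusted p = 1.98e-04). Nceh1, a cholesterol ester hydrolase, went from 2.56 ± 0.731 to 16.9 ± 11.4 CPM (2.73 ± 0.499, adjusted p = 5.07e-04). Ch25h, which makes an oxysterol, was at 0.234 ± 0.212 CPM at E16 and 0.274 ± 0.123 at P12, and at 8.80 ± 3.18 at P80. Its step from P12 to P80 was 4.90 ± 1.14 (adjusted p = 0.0467), a call that the omission of any E16 sample but replicate 2, of any P12 or P80 sample, or of P310 replicate 3 or 4 ended, with adjusted p-values from 0.0532 to 0.502.

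Of 11 further genes of efflux and transfer, 5 rose and 2 fell from E16 to P80. Clu, another lipid-binding secreted protein, rose from 14.4 ± 2.64 CPM at E16 to 328 ± 42.8 at P12 and 498 ± 92.4 at P80 (5.11 ± 0.328, adjusted p = 2.41e-08). Apod, a lipocalin, rose from 11.7 ± 2.34 to 119 ± 35.6 CPM (3.35 ± 0.557, adjusted p = 5.07e-04). Abca7, a lipid transporter, rose from 21.7 ± 3.44 to 50.99 ± 6.95 CPM (1.23 ± 0.306, adjusted p = 0.00488). From E16 to P12, 3 of the 11 rose and 1 fell. Clu and Apod rose by 4.51 and 3.46 (adjusted p = 1.34e-07 and 8.99e-04), and Stard5, a sterol transfer protein, by 1.83 ± 0.439 (adjusted p = 0.00591). The genes that fell from E16 to P80 were Gramd1a and Gramd1b, which carry sterol from the plasma membrane to the endoplasmic reticulum and are named here after their values were seen, with log2 changes of -0.90 ± 0.238 (adjusted p = 0.00761) and -1.04 ± 0.274 (adjusted p = 0.00731). The fall of Gramd1a from E16 to P12, -1.07 ± 0.273 (adjusted p = 0.00881), was lost without P12 replicate 1 (-0.77, adjusted p = 0.127). No gene of the 38 was called from P80 to P310.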

How the data were processed

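The values are raw counts per gene, deposited by the authors for 13 libraries. Per the file headers, featureCounts 1.5.0-p1 was run over the exons of the Ensembl GRCm38 release 92 annotation, with a minimum overlap of 10 bases, no strand option, and reads that overlap several genes or map to several places counted for each. Overlapping genes and near-identical copies therefore share reads. Trim Galore and TopHat2 2.1.1 are named in the submitters' processing notes. The library kit was a low-input stranded total RNA kit, per the labels.

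The members and all gene lists were chosen with earlier results of these data known, as was the summing of P12 replicates 2 and 3. After filterByExpr by age and TMM scaling, edgeR 4.0.16 under R 4.3.3 fitted a mean per age to 12 samples and tested it with its robust quasi-likelihood F test (common biological coefficient of variation 0.513). P-values were adjusted by Benjamini-Hochberg over 21170 genes, with a threshold of 0.05, and "called", "rose" and "fell" refer to it. Standard errors of log2 changes were derived from the F statistic. The scripts were tested on simulated data. All 30 members are named, with every sample's value where a comparison called them. Of each further pathway list, up to 3 called genes with the smallest adjusted p per comparison are named, and the marker lists are given as sums. A gene of the further lists is not reported here.

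A count of 0 allows up to 3 counts, or between 0.116 and 0.346 CPM depending on the depth of the library. These limits are for the 13 libraries taken singly and before TMM scaling, so they differ somewhat from the scale of the values above. Because copies made by PCR are not separate molecules, this covers counting error alone. Promoters came from RefSeq on GRCm38.p6, while gene coordinates are those of the files. The alternatives were RLE and upper quartile scaling, no filter, a filter of 1 CPM in 3 samples, DESeq2 1.42.0, limma-voom (limma 3.58.1) with quality weights, a fit to the pair of ages alone, P12 replicates 2 and 3 apart, that fit with the replicate number as a block, removal of mitochondrial, ribosomal protein and haemoglobin genes, an added minimum log2 change of 1, and each sample left out in turn. Leaving out P12 replicate 1 and P310 replicate 2 together was added after seeing the data. Python 3.11.15 with pandas 2.3.3, numpy 2.4.6 and matplotlib 3.10.9 made the summaries and figures.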

Additional observations from a re-analysis of the deposited data

Results flagged for a closer look

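In the P310 group of 4 samples, 4 of the 30 members and 1 of 23 summed lists had a sample far from the other 3. Chance marks about 1 in 20 such groups, and 53 were examined. P310 replicate 2 had the lowest level of Ggps1, at 19.5 CPM with the others at 22.04 to 22.4, of Cyp51, at 4.07 CPM with the others at 11.9, 12.9 and 13, and of Nr1h2, at 45.5 CPM with the others at 76.8 to 82.8. The same sample had the highest summed level of oligodendrocyte markers, 67262 CPM. P310 replicate 1 had 0.264 CPM of Ebp, with the others at 6.60 to 7.31.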

How the results depend on the processing

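Over 24 alternatives (22 for all ages together) no direction of a called member was reversed. The count of members lower at P80 than at E16 stayed at 11 to 15 (13 in the results) and that over all ages at 13 to 21 (19). From E16 to P12, the 5 members called higher became 2 with P12 replicate 1 and P310 replicate 2 both left out, an alternative chosen after seeing the data, and 2 to 5 with single samples left out. The 4 called lower became 10 with limma-voom, 8 with P12 replicates 2 and 3 apart, 8 with both myelin-rich samples left out, and 2 to 8 with single samples left out. From P12 to P80, the 2 called lower became 4 with no filter, 1 with P12 replicates 2 and 3 apart, 1 with both myelin-rich samples left out, and 0 to 2 with single samples left out. From P80 to P310, 1 member (Sqle) was called lower with no filter. The 5 members higher at P80 than at E16 became 3 where a log2 change of at least 1 was required, and 3 to 6 with single samples left out. The counts of all genes moved as well. From E16 to P12, 5765 of 21170 genes were called in the results and 8342 with limma-voom. From P12 to P80, 301 were called in the results and 877 of 29980 with no filter. With P12 replicates 2 and 3 apart, 7665 of 20391 were called from E16 to P12 and 521 from P12 to P80. With both myelin-rich samples left out, 1 sample remained at P12. The median log2 change from E16 to P12 was then -0.63 for the members and 0.19 for all genes. Why these counts moved was not tested, other than that leaving out samples leaves fewer of them. With P12 replicates 2 and 3 apart and a replicate block, 7 members were lower at P12 than at E16, against 8 without the block. Of 20391 genes, 7303 were called in that comparison with the block and 7665 without it. The deviations of 18 same-numbered pairs correlated at -0.234 to 0.21, and the 3 above 0.1 were all pairs of replicate 2. Pairs with different numbers were not compared, so whether the numbers pair the samples cannot be told from these values. Upper quartile scaling moved the median log2 change of all genes from E16 to P80 from 0.116 to 0.24 and that of the members from -0.82 to -0.70. With 2 samples at P12, the steps to and from that age rest on few values, and members under about 5 CPM, such as Nr1h3 and Ebp, rest on few counts in some libraries.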

Other observations

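The fatty acid genes that SREBP1 controls, a list of 11, were mostly lower in the adult samples, as the sterol enzymes were. From E16 to P80, 7 of them fell and 1 rose, with a median log2 change of -1.03, and 9 were called over all ages, where 19.2% of all genes fell, 21.5% rose and 37.1% were called over all ages. Acly, which makes cytosolic acetyl-CoA from citrate, averaged 280.3 ± 33.3 CPM at E16, 107 ± 27.2 at P12 and 88.5 ± 7.69 at P80 (-1.66 ± 0.198, adjusted p = 1.07e-05 by edgeR's quasi-likelihood test). Fasn, fatty acid synthase, went from 356 ± 75.8 to 171 ± 1.23 and 112 ± 15.8 CPM (-1.67 ± 0.202, adjusted p = 1.21e-05), and Acaca, acetyl-CoA carboxylase, from 165 ± 28.4 to 86.01 ± 7.19 and 80.9 ± 11 CPM (-1.03 ± 0.250, adjusted p = 0.00428). Me1, the cytosolic malic enzyme, went the other way, from 5.17 ± 1.07 CPM at E16 to 16.2 ± 2.81 at P12 (1.65 ± 0.381, adjusted p = 0.00466). The sum of the 11 genes was 2496 CPM in P310 replicate 2, the sample highest in oligodendrocyte markers, and 636 to 1005 CPM in the other P310 samples. Within the list, Scd1 alone ranged from 42.8 to 1417 CPM at P310, and it is named here after its values were seen. The part of oligodendrocytes in that sum was not tested.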
